A study of Arabidopsis thaliana with 15 samples.

Results

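AT1G74450, AT4G12980, PMZ, AT4G30490 and AT5G04760 were the 5 transcripts studied here, each measured by 1 probe set of the 22746 on the Affymetrix ATH1 Arabidopsis array that are not controls. They were chosen by their signals, which were higher in pollen grown for 0.5 h than in dry pollen, by at least 3-fold and with a B value (the log odds that a probe set differs, from limma) above 3. Those are the study's limits, and "changed" has this meaning throughout. The comparison that chose them is therefore given as a description with no test.

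The arrays came from wild-type Columbia (Col-0) pollen. The 4 dry pollen arrays held desiccated grains collected by vacuum from open flowers, the 4 arrays of 0.5 h PT and the 4 of 4 h PT held pollen incubated in liquid growth medium for 0.5 and 4 h, and the 3 arrays of SIV PT held pollen tubes grown semi *in vivo*. For SIV PT, Col-0 pollen was placed on excised pistils of *ms1* plants, which make no pollen of their own, and the tubes that had crossed stigma and style and emerged onto solid medium were cut off. The tubes had 3 h in the pistil and, by the age field of the labels, 5 h on the medium, for which the protocol gives a shorter time. Bundles from 800 pistils were pooled for each SIV PT replicate, and 2 µg of its RNA were labelled against 5 µg for the other conditions. Not every grain of the liquid cultures had germinated. Where 4 values with SDs follow each other below, they are for dry grains, the 0.5 h culture, the 4 h culture and SIV PT. The labels call the replicates biological without saying that they were separate pollen collections, so the errors below measure the spread between arrays.

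A mature pollen grain leaves the anther dry, with a large store of transcripts made during development. It rehydrates within minutes on a stigma or in medium, restarts metabolism and sends out a tube from its vegetative cell, and early germination is known to rely largely on stored RNA and protein. From dry pollen to 0.5 h PT, 6 of the 22746 probe sets (0.0264%) were changed upward and 8 (0.0352%) downward. The upward probe set beside the 5 was that of AT1G76640, which encodes a calmodulin-like calcium-binding protein. It had the largest fold and B value of the 6, 12.1 and 10.1, but was not among the transcripts chosen for study here.

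The 5 proteins belong to unrelated families. PMZ, also called SAP12, has AN1-type zinc fingers and is a stress-associated protein. AT5G04760 is a MYB-family transcription factor of the R-R type, related to DIVARICATA of snapdragon. AT4G12980 is annotated as an auxin-responsive protein and has a DOMON domain with a cytochrome b561 domain, an arrangement found in membrane proteins that pass electrons. AT4G30490 is an AFG1-like ATPase, and AFG1 of yeast acts in mitochondria. AT1G74450 is related to BYPASS1 and has no known activity.

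The pollen labels were checked against marker transcripts. Of 8 listed vegetative cell genes 4 could be paired with a probe set, and their summed signal was 92341 to 98161 in dry pollen and 63719 to 65857 in SIV PT, with 93091 to 102139 after 0.5 h of culture and 94191 to 115683 after 4 h. The lower sum in SIV PT came from PRK2A, a pollen receptor kinase. The 3 measured of 12 listed pistil genes (SPT, AT3G12000 and CES) together gave 124 to 397 in SIV PT. They gave 165 to 284 in dry pollen, 126 to 383 in the 0.5 h culture and 165 to 221 in the 4 h culture. CES was at 125 ± 127 in SIV PT against 34.2 ± 29.2 in dry pollen, and SPT at 55.7 ± 20.3 against 94.1 ± 45.6. With 3 of 12 genes measured, this check for pistil RNA is only partial. Pearson correlations between arrays of 1 condition were 0.928 to 0.967.

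One array stood apart for these transcripts. Within 4 h PT, replicate 4 was the highest array for all 5 of them. It was the highest 4 h PT array for 34.5% of all probe sets, but for 146 of the 163 (89.6%) that were changed upward from dry pollen to 4 h PT. It also had the lowest mean correlation with the other 4 h PT arrays, 0.931, and the highest median signal of the 15 arrays, 108. The differences that involve 4 h PT are given below with and without it.

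AT1G74450 was at a signal of 262, 225, 318 and 251 in replicates 1 to 4 of dry pollen and at 1968, 1742, 2781 and 3329 in 0.5 h PT. In 4 h PT it was at 4204, 4815, 5417 and 8985. In SIV PT it was at 1454, 1387 and 1939. The arrays of dry grains and of the 2 liquid cultures formed 3 separate ranges, and the SIV PT arrays lay around the low end of 0.5 h PT.

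AT4G12980 started lowest relative to its later level. Its dry pollen arrays gave 150, 48.9, 16.4 and 11.7, a range that reaches the low end of the arrays. The 0.5 h PT arrays gave 819, 638, 734 and 657, and 4 h PT gave 5299, 5551, 2966 and 12722. The SIV PT arrays were close together at 11376, 11788 and 11527, above 3 of the 4 h PT arrays and below the highest.

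PMZ was well above the low end of the arrays before growth began. It was at 729, 705, 623 and 370 in dry pollen and at 2075, 2163, 2732 and 2218 in 0.5 h PT. In 4 h PT it was at 4854, 5000, 6804 and 7287, and in SIV PT at 7022, 7366 and 6465. The first 3 conditions were fully separated, and SIV PT lay within and just above the range of 4 h PT.

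AT4G30490 was at 383, 188, 151 and 291 in dry pollen and at 1400, 1708, 1113 and 1404 in 0.5 h PT. In 4 h PT it was at 2364, 1717, 1708 and 3446. In SIV PT the replicates were uneven, at 932, 882 and 1991. The lowest 4 h PT array and the highest 0.5 h PT array, both at 1708, were 0.17 signal units apart.

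AT5G04760, the MYB factor, was at 43.7, 34.1, 27.9 and 113 in dry pollen. It reached 490, 310, 677 and 886 in 0.5 h PT. The 4 h PT arrays, at 571, 352, 569 and 1013, covered nearly the same range, and SIV PT was at 628, 692 and 1111. Only dry pollen was separated from the other conditions.

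**Figure D1:**
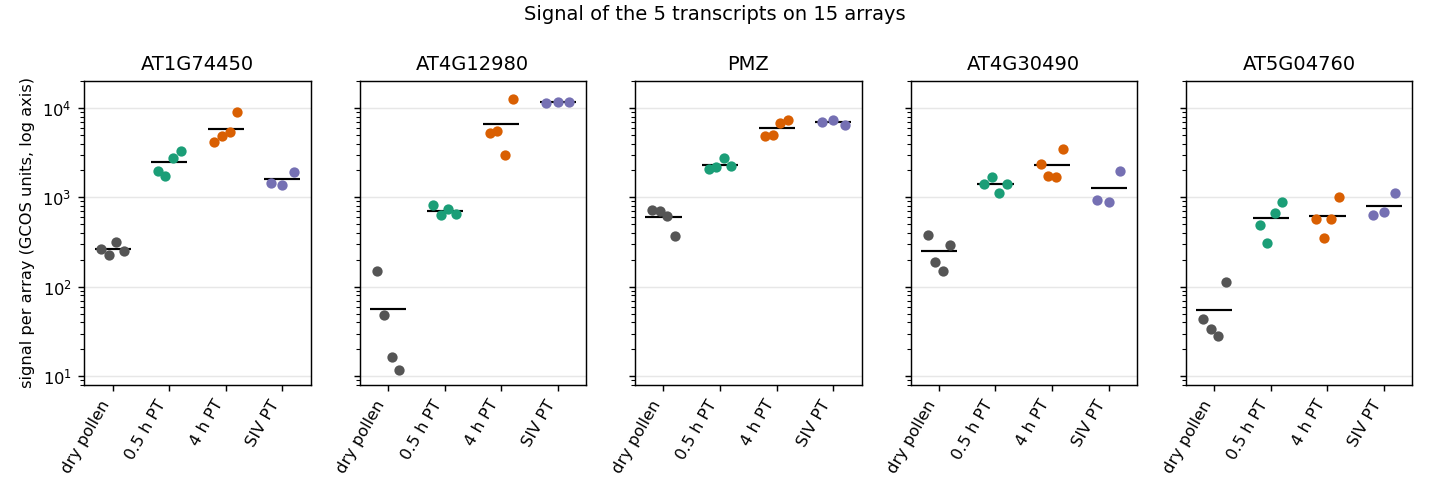
Signal on each array (points, log axis, GCOS units) of the 5 transcripts in each condition (3 arrays for SIV PT and 4 for each other), with bars at the condition means. Dry pollen lies below all other arrays in every panel, AT1G74450 drops back in SIV PT (1387 to 1939), and AT4G12980 has its most uneven condition in 4 h PT (2966 to 12722).

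The signals were next compared as log2(signal + 64), where the added 64 damps the noise of dim spots and makes the folds of dim transcripts smaller than the ratios of their signals. The excess of 0.5 h PT over dry pollen, the one used for the choice, was 2.90 ± 0.25 (log2, SE) for AT1G74450, 2.81 ± 0.37 for AT4G12980, 2.43 ± 0.33 for AT5G04760, 2.26 ± 0.30 for AT4G30490 and 1.85 ± 0.21 for PMZ. In ratios of mean signals the order was different. AT4G12980 was 12.5 times and AT5G04760 10.8 times as high as in dry pollen, followed by AT1G74450 at 9.29, AT4G30490 at 5.55 and PMZ at 3.78 times. The array cannot tell more transcript per grain from a larger share of grains that hold it.

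The members closest to the limits on B were AT4G12980 (B of 4.58), AT4G30490 (4.46) and AT5G04760 (4.32), and PMZ had the smallest fold, 3.60. Without dry pollen replicate 3 only 2 of the 5 were past both limits, and without dry pollen replicate 2 only 3 were. Just outside were PUB22, which encodes a U-box ubiquitin ligase, at 3.55-fold and a B of 2.81, CXE18, which encodes a carboxylesterase, at 4.53-fold and 2.81, and ABCB9, which encodes an ABC transporter, at 3.36-fold and 2.50. The mean signal of PUB22 was 62.7 ± 53.7, 355 ± 12.8, 574 ± 241 and 212 ± 16.7 (SD, n = 4, 4, 4 and 3 arrays). CXE18 went from 63.5 ± 43.5 through 499 ± 119 and 1663 ± 1049 to 8485 ± 867 in the same order.

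After 0.5 h the 5 transcripts took different courses *in vitro*. In mean signal, 93.8% of the rise of AT5G04760 from dry pollen to 4 h PT was present at 0.5 h. The share was 56.1% for AT4G30490, 39.2% for AT1G74450, 31.4% for PMZ and 9.96% for AT4G12980. On the log2 scale the same shares were 97.0%, 77.7%, 70.5%, 57.9% and 49.1%, so AT5G04760 was nearly complete on either scale and AT4G12980 had the most left to gain. All these shares include 4 h PT replicate 4, the highest 4 h PT array for all 5 transcripts, and would be larger without it. They also rest on the 0.5 h excess that was used for the choice.

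From 0.5 h PT to 4 h PT AT4G12980 was higher by 2.92 (95% interval 2.13 to 3.71), or by 2.54 without 4 h PT replicate 4. PMZ was higher by 1.34 (0.90 to 1.79) and by 1.24 without that array. AT1G74450 was higher by 1.22 (0.69 to 1.75) and by 0.99 without it. The difference of AT4G30490 was 0.65 (0.0020 to 1.29) and 0.44 without it, and that of AT5G04760 was 0.08 (−0.63 to 0.78) and −0.17 without it. These intervals are descriptions, because the 0.5 h PT arrays took part in the choice of the transcripts. By the same limits AT4G12980 alone would count as changed, at a step where 116 of all probe sets (0.510%) were changed upward, and with an offset of 16 in place of 64 it would not. The 4 h PT arrays lay above all 0.5 h PT arrays for 4 of the 5 transcripts, as they did for 3.54% of all probe sets.

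Against dry pollen, 4 h PT was higher by 5.73 for AT4G12980, 4.12 for AT1G74450, 3.19 for PMZ, 2.90 for AT4G30490 and 2.51 for AT5G04760. Without 4 h PT replicate 4 these differences were 5.35, 3.89, 3.09, 2.69 and 2.27. All 5 pass the limits either way, at a step where 163 probe sets (0.717%) were changed upward. The dry pollen arrays are those that chose the transcripts, so the count adds no support.

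**Figure D2:**
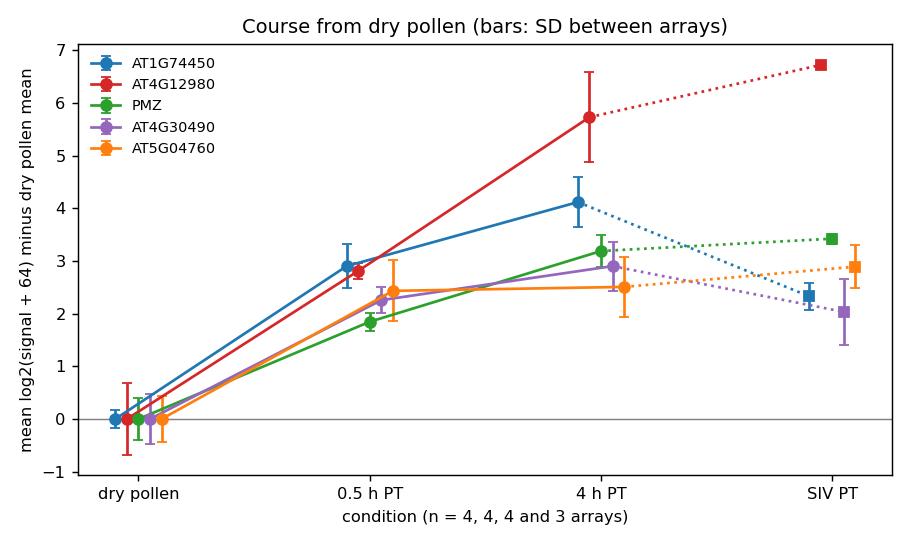
Mean log2(signal + 64) relative to the dry pollen mean in the 4 conditions, with bars for the SD between arrays (n = 4, 4, 4 and 3). Solid lines join the liquid cultures and dotted lines lead to SIV PT. The 5 courses lie 1.85 to 2.90 above dry pollen in 0.5 h PT and spread to between 2.03 and 6.72 in SIV PT.

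The difference between SIV PT and 4 h PT uses neither group of arrays that chose the transcripts, so it was tested. The test is not fully separate from the choice, because its variance estimate draws on all 15 arrays. The comparison sets cut tubes that had passed through a pistil against whole liquid cultures, which also held grains that had not germinated. Medium, total time and RNA input differed as well, so the part of the pistil cannot be told apart from these. AT1G74450 fell by 1.79 ± 0.27 (log2, SE, 95% interval −2.36 to −1.22, limma adjusted p = 0.00013, B of 3.63), which is 3.46-fold, and all 3 SIV PT arrays lay below all 4 h PT arrays. Its mean signal was 5855 ± 2145 in 4 h PT and 1594 ± 301 in SIV PT (SD, n = 4 and 3), so SIV PT held 27.2% of the 4 h PT level. Of all probe sets, 474 (2.08%) were changed downward and 616 (2.71%) upward at this step, and the groups were separated in that direction for 13.2%.

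The call for AT1G74450 sat close to its limits. Without 4 h PT replicate 4 it fell by 1.56, just under 3-fold (adjusted p = 0.000219, limma). The B value dropped below 3 without dry pollen replicate 1 or 4, 4 h PT replicate 2 or 3, or any 1 of the SIV PT arrays. Fitted with the arrays of the 2 conditions alone, it was 1.05 (limma adjusted p = 0.00279). Over the 9 other settings and 15 omissions tried, the change ran from −2.10 to −1.56 and the limma adjusted p from 2.67e-07 to 0.00279.

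The other 4 transcripts were not changed between 4 h PT and SIV PT. AT4G30490 differed by −0.87 ± 0.33, lower in SIV PT (−1.57 to −0.17, limma adjusted p = 0.073), with means of 2309 ± 818 and 1269 ± 626. Its SIV PT arrays overlapped 4 h PT through replicate 3 alone. With 1 array left out the difference ran from −1.23 without that replicate (adjusted p = 0.015, limma) to −0.66 without 4 h PT replicate 4 (adjusted p = 0.186, limma), and it was −0.71 and −0.67 without SIV PT replicates 1 and 2 (adjusted p = 0.25 and 0.268, limma). AT4G12980 was higher in SIV PT by 0.99 ± 0.40 (0.14 to 1.85, limma adjusted p = 0.0978), with means of 6634 ± 4222 and 11564 ± 208. Without 4 h PT replicate 4, the only array above the SIV PT values, the difference was 1.37 (adjusted p = 0.00842, limma), still under 3-fold.

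PMZ differed by 0.23 ± 0.23 (−0.25 to 0.71, limma adjusted p = 0.548), or 0.34 without 4 h PT replicate 4 and 0.14 without 4 h PT replicate 1, with means of 5986 ± 1240 and 6951 ± 455. AT5G04760 differed by 0.38 ± 0.36 (−0.38 to 1.15, limma adjusted p = 0.532), or 0.63 without 4 h PT replicate 4, 0.17 without 4 h PT replicate 2 and 0.15 without SIV PT replicate 3, with means of 626 ± 277 and 810 ± 262. The median change of all probe sets was −0.07 and that of the 5 transcripts 0.23.

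**Figure D3:**
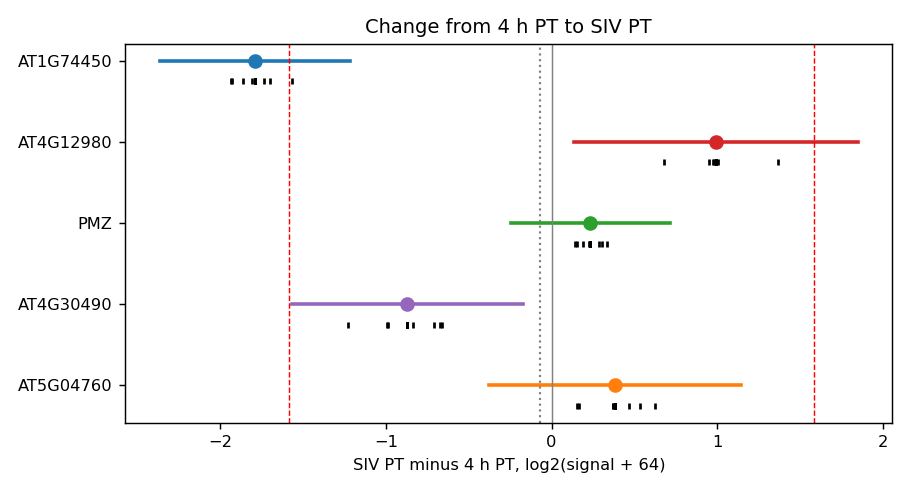
SIV PT minus 4 h PT in log2(signal + 64) for the 5 transcripts (points) with 95% intervals (lines), and below each the values with 1 array left out (black ticks). Dashed red lines mark 3-fold and the dotted line the median of all probe sets (−0.07). The interval of AT1G74450 ends at −1.22, and those of PMZ and AT5G04760 include 0.

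Whether the transcripts differed from each other in this step was asked by subtracting them array by array. In 6 of the 10 pairs the difference between the members did not overlap between the 4 arrays of 4 h PT and the 3 of SIV PT, among them all 4 pairs with AT1G74450. Of all pairs of tested probe sets 30.7% did not overlap in this way, and the 10 pairs share members, so they are not 10 separate observations. The change of AT1G74450 minus that of the other member was −2.78 for AT4G12980, −2.17 for AT5G04760, −2.02 for PMZ and −0.92 for AT4G30490. The change of AT4G12980 exceeded that of AT4G30490 by 1.86, and the change of AT4G30490 minus that of AT5G04760 was −1.25. Each of these 6 pairs gave an exact two-sided permutation p = 0.0571, the smallest that 7 arrays allow (adjusted p = 0.0952 over the 10 pairs), so no pair could pass 0.05. PMZ, AT4G12980 and AT5G04760 overlapped in their pairwise differences, as did PMZ and AT4G30490 (exact two-sided permutation p = 0.114 to 0.686). Without 4 h PT replicate 4 the 6 separated pairs were still separated, with differences of −2.93, −2.19, −1.90, −0.90, 2.03 and −1.29 in the order given, and the pair of AT4G12980 and PMZ was separated as well.

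Other measures moved with SIV PT. The ratio of the 3′ to the 5′ GAPDH control probe sets, which is higher where RNA is shorter or less completely copied, was 6.59 to 9.72 in SIV PT and 1.25 to 2.88 in the other conditions. For the actin controls it was 1.71 to 2.08 against 0.0414 to 0.794, while for ubiquitin it was 3.34 to 4.05 against 2.11 to 3.86. The 5′ control signals were dim for GAPDH (condition means 181 to 249) and actin (139 to 370), and strong for ubiquitin (6848 to 12371). The part of these ratios in the SIV PT values was not tested.

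Against dry pollen, SIV PT was higher by 6.72 for AT4G12980, 3.42 for PMZ, 2.89 for AT5G04760, 2.33 for AT1G74450 and 2.03 for AT4G30490. All SIV PT arrays lay above all dry pollen arrays for the 5 transcripts, as they did for 17.6% of all probe sets. By the limits, 4 of the 5 would count as changed, beside 4.08% of all probe sets changed upward, and AT4G30490 would not (B of 2.85). It would do so without 4 h PT replicate 4 (B of 3.28) or dry pollen replicate 1. The same held with median centring, a variance trend, or a limit on adjusted p in place of B.

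The order of the conditions by mean signal was the same for AT4G12980, PMZ and AT5G04760, with dry pollen lowest, the 0.5 h and 4 h cultures next and SIV PT highest. For AT5G04760 the last 3 of these did not differ beyond their spread, for PMZ the last 2 did not, and for AT4G12980 the last 2 overlapped through 1 array. AT1G74450 ran from dry pollen through SIV PT and 0.5 h PT to 4 h PT, with SIV PT and 0.5 h PT overlapping. AT4G30490 had the same order, again with SIV PT and 0.5 h PT overlapping, at 1269 ± 626 and 1406 ± 243.

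**Figure D4:**
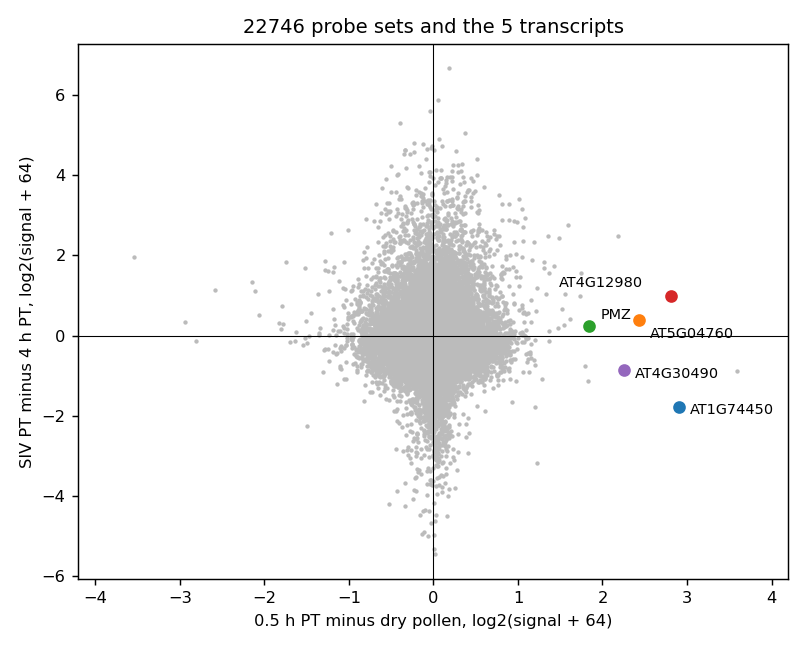
Change from dry pollen to 0.5 h PT (horizontal) against that between SIV PT and 4 h PT (vertical), both in log2(signal + 64), for all 22746 probe sets (grey) and the 5 transcripts (coloured). The axes share no arrays. The 5 lie at 1.85 to 2.90 on the horizontal axis, where they were chosen to lie, and between −1.79 and 0.99 on the vertical.

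The relatives of each transcript were then followed, from lists of their families. Of the 34 that were measured, 0 were changed from dry pollen to 0.5 h PT by the limma limits, and 3 of them had an unadjusted p below 0.05 (AT2G38090, AT5G01200 and AT5G47390), beside 6.05% of all probe sets. The stress-associated protein family of PMZ had 7 other measured members of 14 listed, and 0 of the 7 were changed from dry pollen to 0.5 h PT, with differences of −0.16 to 0.17 and a median of 0.06 (all probe sets 0.01). AT2G36320 was at 32822 ± 6001 in dry pollen and 31349 ± 5680 in 4 h PT, and at 7510 ± 338 in SIV PT. From 4 h PT to SIV PT 0 were changed upward and 3 downward, beside 2.71% and 2.08% of all probe sets. The changes were −2.04 for AT2G36320, −1.91 for AT3G57480 and −1.79 for AT3G52800 (limma adjusted p = 1.12e-06, 6.98e-07 and 1.12e-06). The other 4 differed by less than 3-fold. AT4G22820, SAP10 and AT2G27580 were higher, by 1.41, 1.21 and 0.83 (limma adjusted p = 4.55e-05, 0.061 and 0.00307). AT1G51200 was lower (−0.79, limma adjusted p = 0.00388). AT4G22820 was higher in SIV PT than in dry pollen by 2.36, at 2574 ± 171 against 449.5 ± 36.1, and counts as changed. PMZ itself differed by 0.23 from 4 h PT to SIV PT.

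Of the BYPASS1-related family 6 others of 10 listed were measured, and 0 were changed at 0.5 h (median −0.09). AT1G43630 was at 5448 ± 989, 4619 ± 348, 3521 ± 926 and 1074 ± 321, and it fell by 1.65 from 4 h PT to SIV PT (limma adjusted p = 0.000137). It fell at the step where AT1G74450 fell, but had its highest mean in dry pollen. BPS1 itself, which holds back a root-derived signal that stops shoot growth, was at 145 ± 123 in dry pollen and 2724 ± 396 in SIV PT, a rise of 3.88. From 4 h PT, at 357 ± 196, to SIV PT it was higher by 2.90, opposite to AT1G74450. That difference (limma adjusted p = 0.000414) was over 3-fold but not past the limit on B. The median of the 6 relatives at this step was 0.19.

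In the DOMON and cytochrome b561 family, 10 others of 13 listed were measured and 0 were changed at 0.5 h (median 0.12). AT5G35735 rose by 2.22 from 4 h PT to SIV PT, from 51.5 ± 40.7 to 453 ± 89.3 (limma adjusted p = 6.92e-05). AT4G12980 was the member of this family with a large difference in liquid medium, since the 10 others lay between −0.65 and 0.53 from dry pollen to 4 h PT. The AFG1-like family had 1 other measured member, AT2G25530, at 1318 ± 115 in dry pollen and 1515 ± 98.0 in 0.5 h PT, a difference of 0.19 that did not pass.

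Among the R-R type MYB factors 10 others of 13 listed were measured, and 0 were changed at 0.5 h (median 0.09). AT5G08520 rose by 3.84 from 4 h PT to SIV PT, from 149 ± 153 to 2518 ± 245 (limma adjusted p = 9.35e-07), after 22.4 ± 7.7 in dry pollen and 19.0 ± 2.1 in 0.5 h PT. AT5G47390 counts as changed from dry pollen to SIV PT, with a rise of 1.87. Its signal was 639.6 ± 212, 1261 ± 166, 1415 ± 445 and 2447 ± 417, and its 0.5 h difference of 0.96 did not pass. The largest step of AT5G08520 was thus from 4 h PT to SIV PT, and its 4 h PT arrays were already uneven. AT5G04760 was higher at 0.5 h PT, the step it was chosen for.

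A list of genes known to respond early to touch, wounding and stress was followed in the same way. Of 16 measured from 24 listed, 1 rose and 0 fell from dry pollen to 0.5 h PT, with a median of −0.05. By limma, 7 of the 16 had an unadjusted p below 0.05, beside 6.05% of all probe sets. AT1G76640, PUB22, PUB23, NAC062 and ERF6 were higher, and TCH3 and ZAT6 lower. The list was chosen with earlier results of these data known, so the count adds no support. The 4 largest differences were 3.60 for AT1G76640, 1.83 for PUB22, 1.31 for PUB23, a ubiquitin ligase like PUB22, and 1.06 for NAC062, a membrane-bound transcription factor, and only the first passed. PUB23 was at 86.6 ± 60.5, 296 ± 90.5, 2443 ± 1340 and 8063 ± 563. From 4 h PT to SIV PT 2 of the 16 rose and 0 fell: CML37, which encodes a calmodulin-like protein, by 2.96 and NAC062 by 2.72 (limma adjusted p = 1.09e-06 and 1.01e-06). NAC062 went from 593 ± 182 to 4177 ± 604. The rest did not pass. Higher among them were PUB23 (1.83, limma adjusted p = 0.00174, over 3-fold but not past the limit on B) and TCH2 (1.27). WRKY33 (0.99, limma adjusted p = 0.00116) and STZ (1.01, limma adjusted p = 0.078) were also higher, but dim. They went from 18.4 ± 19.7 to 98.0 ± 23.3 and from 47.7 ± 53.4 to 153 ± 70.9. Lower among them were PUB22 (−1.13), AT1G76640 (−0.89) and PUB24 (−0.53). All others lay between −0.17 (ERF-1) and 0.27 (CML38).

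**Figure D5:**
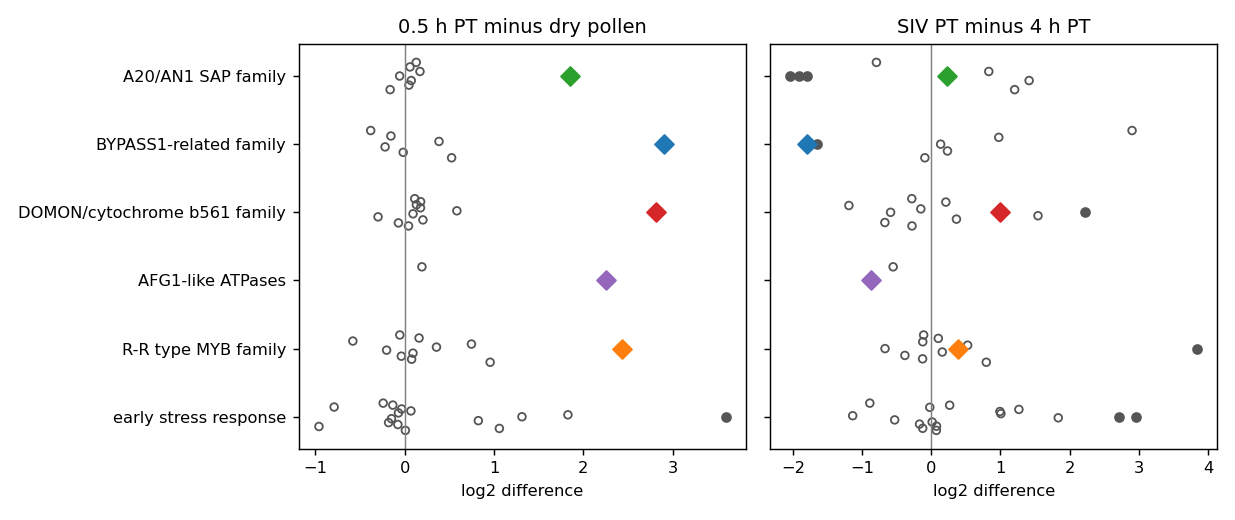
Log2 differences of the 5 transcripts (coloured diamonds) and of the measured members of their families and of the early response list (circles, filled where changed), for 0.5 h PT minus dry pollen (left) and SIV PT minus 4 h PT (right). On the left the diamonds lie at 1.85 or more and the family circles at 0.96 or less, and AT1G76640 is the filled circle at 3.60.

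The transcripts whose pattern over the 15 arrays was most like each member were found by Pearson correlation of log2(signal + 64), among 7773 other probe sets above a mean of 8 in at least 1 condition. These correlations mainly express differences between 4 conditions and are given as a description. For AT1G74450 the nearest were AT1G76640 and the member AT4G30490 (both r = 0.936) and PUB22 (0.932), and 4 probe sets reached 0.9. AT1G76640 had a mean signal of 208 ± 54.3, 3191 ± 337, 14892 ± 5144 and 7840 ± 1861, so its SIV PT level too lay below that of 4 h PT, with a difference of −0.89 (limma adjusted p = 0.0192, not past the limits). The difference of PUB22 there was −1.13 (limma adjusted p = 0.017, not past the limits).

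AT4G12980 had far more company, with 92 probe sets at 0.9 or above. ABCB9 (0.979), BGLU14, a beta-glucosidase (0.975), and AT1G67640 (0.974) were nearest. ABCB9 went from 210 ± 71.4 through 844 ± 185 and 6122 ± 3278 to 16787 ± 2672. PMZ was most like AT4G12980 (0.973), then AT1G76640 (0.959) and AT4G29440 (0.954), with 29 probe sets at 0.9 or above. For AT4G30490 the nearest were AT1G74450 (0.936), AT1G76640 (0.915) and AT5G37230 (0.888).

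AT5G04760 was most like AT5G37230 (0.927), AT3G52110 (0.903) and AT1G24440 (0.903). AT5G37230 shared its flat course after 0.5 h, at 571 ± 124, 1676 ± 125, 1404 ± 343 and 1595 ± 339. Its probe set has the suffix that Affymetrix gives to probes which may also bind other transcripts. With rank correlation in place of Pearson's, 2 of the 3 nearest stayed for AT1G74450, 1 for AT4G30490 and AT5G04760, and 0 for AT4G12980 and PMZ, so the names are loose, the link of PMZ to the member AT4G12980 included.

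Between the 5 transcripts the correlation over the 15 arrays ran from 0.762 (AT1G74450 and AT4G12980) to 0.973 (AT4G12980 and PMZ). Once the condition means were removed it ran from −0.08 (PMZ and AT4G30490) to 0.74 (AT1G74450 and AT5G04760). AT1G74450 and AT5G04760 shared their highest array in 0.5 h PT (replicate 4), 4 h PT (replicate 4) and SIV PT (replicate 3), although their mean courses parted in SIV PT. The shared arrays of 4 h PT and SIV PT were not particular to this pair. They were the highest of their condition for 5 and 3 of the 5 members, and for 34.5% and 34.4% of all probe sets.

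The protein-coding genes next to each member in the RefSeq order of the chromosomes were also looked up, and 7 of these 10 neighbours had 1 probe set of their own. From dry pollen to 0.5 h PT these 7 differed by −0.25 to 0.87, all under 3-fold and from mean signals under 100 in dry pollen. The largest was AT4G12990 beside AT4G12980, at 14.8 in dry pollen and 85.1 in 0.5 h PT. From 4 h PT to SIV PT AT4G30500, next to AT4G30490, differed by 3.17 and CAT6, next to AT5G04760, by 2.90.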

How the data were processed

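RNA of 15 samples in 4 conditions was hybridised to ATH1 arrays. Per the labels, the authors made 1 intensity value per probe set with GCOS (version not given in the sources used here). The deposited intensity values are linear, with the 2% trimmed mean of each array at about 500. The study's own analysis used other values (RMA) together with further arrays, so results here rest on another summary of the arrays. Samples were grouped by their titles, and no columns were left out.

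After removal of 64 control probe sets, log2(signal + 64) of the other 22746 was fitted in limma 3.58.1 (R 4.3.3) with 1 mean per condition, all 15 arrays and empirical Bayes variances (11 residual and 3.97 prior degrees of freedom). P-values were adjusted over all probe sets by Benjamini-Hochberg. A changed probe set had a B value above 3 and a fold of at least 3. The script was tested on simulated data. With 3 or 4 arrays in a condition, their number limits precision.

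Of the probe sets, 13441 were named by the platform annotation and 1926, PMZ among them, by the study's supplementary lists, which hold names only for genes the study listed. Another 503 with several genes, 72 on which the sources differ and 6804 without a name were tested but not named. Gene symbols and gene order are those of RefSeq TAIR10.1. The members and lists were chosen with earlier results of these data known. Named genes were the members, the 3 nearest by correlation, changed relatives, the 4 largest early differences of the response list and the 3 probe sets on either side of the limits. Neighbouring genes, and the response genes named for 4 h PT to SIV PT, were added after their values were seen. Alternatives were other offsets, quantile and median scaling, a filter on dim probe sets, a replicate block, 2-condition fits, a variance trend, a limit on adjusted p and leaving out each array. The member pairs without 4 h PT replicate 4 were added after seeing the data. Promoter and protein sequences were not used here.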

Additional observations from a re-analysis of the deposited data

How the results depend on the processing

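The count of changed members from 4 h PT to SIV PT, 1, was 0 with an offset of 16 and with the arrays of the 2 conditions alone, and 0 to 1 with 1 array left out. AT1G74450 then stood at −1.82 (offset 16, B of 2.46) and −1.79 (2 conditions, B of 1.05, limma adjusted p = 0.00279), and at −1.93 to −1.56 with 1 array left out. AT5G04760 turned from 0.38 to −0.060 under quantile normalization (limma adjusted p = 0.941). The cause was not tested. The other 3 transcripts kept their direction and stayed outside the limits under the 9 settings and 15 omissions, while after quantile normalization AT4G12980 was at 1.55 (limma adjusted p = 0.0147) and AT4G30490 at −1.24 (limma adjusted p = 0.0237). Over all probe sets, same-numbered arrays of different conditions deviated from their condition means with correlations of −0.02 to 0.04. Differently numbered arrays gave −0.05 to 0.03. These values show no clear pairing by replicate number but cannot decide whether the arrays were paired. With the replicate block AT1G74450 was at −1.67, and the counts of changed members were 5, 1, 5, 1 and 4 from dry pollen to 0.5 h PT, 0.5 h to 4 h PT, dry pollen to 4 h PT, 4 h PT to SIV PT and dry pollen to SIV PT, as without it.

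The offset moved differences of dim transcripts: from dry pollen to 0.5 h PT, AT4G12980 was at 3.70 with the smaller offset (16) and 1.65 with the larger, and AT5G04760 at 3.14 and 1.41. With the larger offset the changed members at that step numbered 2 in place of 5. Over all probe sets, the upward count at that step, 6, was 3 (larger offset), 11 (variance trend) or 10 (adjusted p), and the downward count, 8, was 2 (larger offset) or 3 (2 conditions). With the 2 conditions alone, upward counts were 45 in place of 116 from 0.5 h PT to 4 h PT, 87 in place of 163 from dry pollen to 4 h PT and 391 in place of 616 from 4 h PT to SIV PT, which was 938 by adjusted p. Downward counts from dry pollen to 4 h PT were 11, or 4 with the 2 conditions alone and 2 with the larger offset, and from 0.5 h PT to 4 h PT 0, or 3 with an offset of 16. Median centring moved the median of all probe sets from 4 h PT to SIV PT from −0.07 to 0.05.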
